A study of Mus musculus with 12 samples.

Results

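Ribosome footprints of 38 complement and coagulation factor genes were examined in mouse liver, in animals fed a high-fat diet (HFD) or the same diet with lycopene (LYC). The members were chosen by symbol from the Ribo-seq table, in which 15749 genes had at least 1 read in any library, and 18 of them belong to complement and 20 to coagulation and fibrinolysis. The Ribo-seq libraries were 6, from livers of male C57BL/6 mice of 16 weeks. HFD1, HFD2 and HFD3 came from mice on HFD for 8 weeks from week 8, and LYC1, LYC2 and LYC3 from mice that also received lycopene at 0.33% of feed by weight. Both groups therefore share the high-fat diet, and no mice on standard feed are in the comparison. Titles and methods give the lycopene, since the treatment label of the LYC mice names the high-fat diet alone. The libraries are named as replicates, but the labels also say that footprints of the groups were pooled ahead of library construction. If they were pooled, the p-values measure only the spread between libraries, which may be technical.

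Complement and coagulation are cascades of plasma proteins, most of them made by hepatocytes and secreted as inactive precursors that proteases cut in sequence. Complement starts from antibody, from sugars on microbes or by slow turnover of C3, converges on the cleavage of C3 and C5 and ends in the membrane attack complex. Coagulation ends with thrombin turning fibrinogen into a fibrin mesh, which plasmin dissolves again, and both cascades are held in check by inhibitors of the serpin family. Liver disease and the acute-phase response are known to shift the hepatic output of these proteins, and fibrinogen and C3 are among the classical acute-phase proteins.

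In Ribo-seq, pieces of RNA covered by ribosomes escape digestion and are sequenced. The deposited values are RPKM, which are reads scaled by transcript length and library size, so levels may be set side by side between genes. Read numbers were worked out from the spacing of the values within a library. Library totals were 834410 to 4405541 reads in HFD and 311050 to 412116 reads in LYC, and 1 read on a gene of 1 kb was worth 0.227 to 1.20 RPKM in HFD and 2.43 to 3.21 RPKM in LYC. Small non-coding RNA genes accounted for 2.21% to 3.50% of the library totals in HFD and 8.07% to 11.3% in LYC. Shares of footprints are therefore also given below without these genes, and their part in the fold changes was not tested. Hepatocyte markers were high in all 6 libraries, with albumin (Alb) between 13379 and 29641 RPKM. Each member was compared between LYC and HFD by limma on log2(RPKM / TMM factor + 1), where TMM is a scaling between libraries and 1 is a pseudocount, which understates the change of low genes. The fit covered 5666 genes with enough reads. Calls needed a log2 fold change beyond 1 in either direction and an unadjusted p below 0.01, two-sided, and p-values were adjusted over all 5666 genes.

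Most members were abundant. The median of mean RPKM in HFD was 160 over the complement members and 185 over the coagulation members, against 2.92 over all genes with reads, and 29 of the 38 members stood among the 1000 genes with the highest footprint level. The fibrinogen chains Fgb and Fgg and complement C3 were highest, with means of 1497, 1375 and 1190.4 RPKM in HFD. The level of Fgb depends on the length used, 1705 bases, while its annotated transcript has 3810 bases. Footprints of the 38 members together made up 2.88%, 3.06% and 2.97% of the library totals in HFD1, HFD2 and HFD3, and 1.88%, 1.84% and 2.38% in LYC1, LYC2 and LYC3. The groups did not overlap in this share. For complement the share was 1.14% to 1.39% in HFD and 0.519% to 0.888% in LYC, and the largest half-width of its 95% Wilson intervals was 0.0286 percentage points. The coagulation share was 1.64% to 1.74% in HFD and 1.22% to 1.49% in LYC, with a largest half-width of 0.0401. Of the reads on genes other than small RNA, complement made up 1.47% to 1.78% in HFD and 0.661% to 1.19% in LYC, with the groups apart. On that base the coagulation share was 1.96% to 2.24% in HFD and 1.63% to 1.99% in LYC, and the groups overlapped. Without Kng1 the coagulation share of the library totals was 1.59% to 1.67% in HFD and 0.737% to 1.26% in LYC. These intervals cover counting error only. In whole liver, fewer cells of a type and less RNA per cell cannot be told apart.

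Of the 38 members 37 were tested, and adipsin (Cfd) had too few reads. Serpinf2, a coagulation member, fell in LYC, and 6.35% of all genes tested were called lower. Kng1, also of coagulation, rose, and 7.09% of all genes tested were called higher. Of the 17 complement members tested, 0 were called by limma. Of these, 4 had an unadjusted p below 0.05 (30.2% of all genes), with C3, Cfb and Hc lower (15.1% of all genes) and C4bp higher (15.1%). Of the 20 coagulation members, 5 had an unadjusted p below 0.05 by limma (30.2% of all genes). These were Serpinf2, F12, Serpinc1 and Fgg lower (15.1% of all genes) and Kng1 higher (15.1%). On the recovered reads, edgeR and DESeq2 each called 1 complement member lower, C3 (7.06% and 6.87% of all genes), and 0 higher (8.77% and 9.09%). With the Benjamini-Hochberg adjusted p of limma under 0.05, the members found were Serpinf2 and F12 on the lower side (5.17% of all genes) and Kng1 on the higher side (6.53%). The fitted log2 fold change was below 0 for 24 of the 37 members and for 54.7% of all genes. On the RPKM as deposited, all 3 LYC libraries lay below all 3 HFD libraries for 17 members (27.6% of all genes) and above them for 1 member (10% of all genes). After TMM scaling the corresponding numbers were 9 below (19% of all genes) and 2 above (19% of all genes). An exact permutation test of 3 against 3 libraries cannot go under p = 0.1, so for single members the fit across all genes is the test used.

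**Figure D1:**
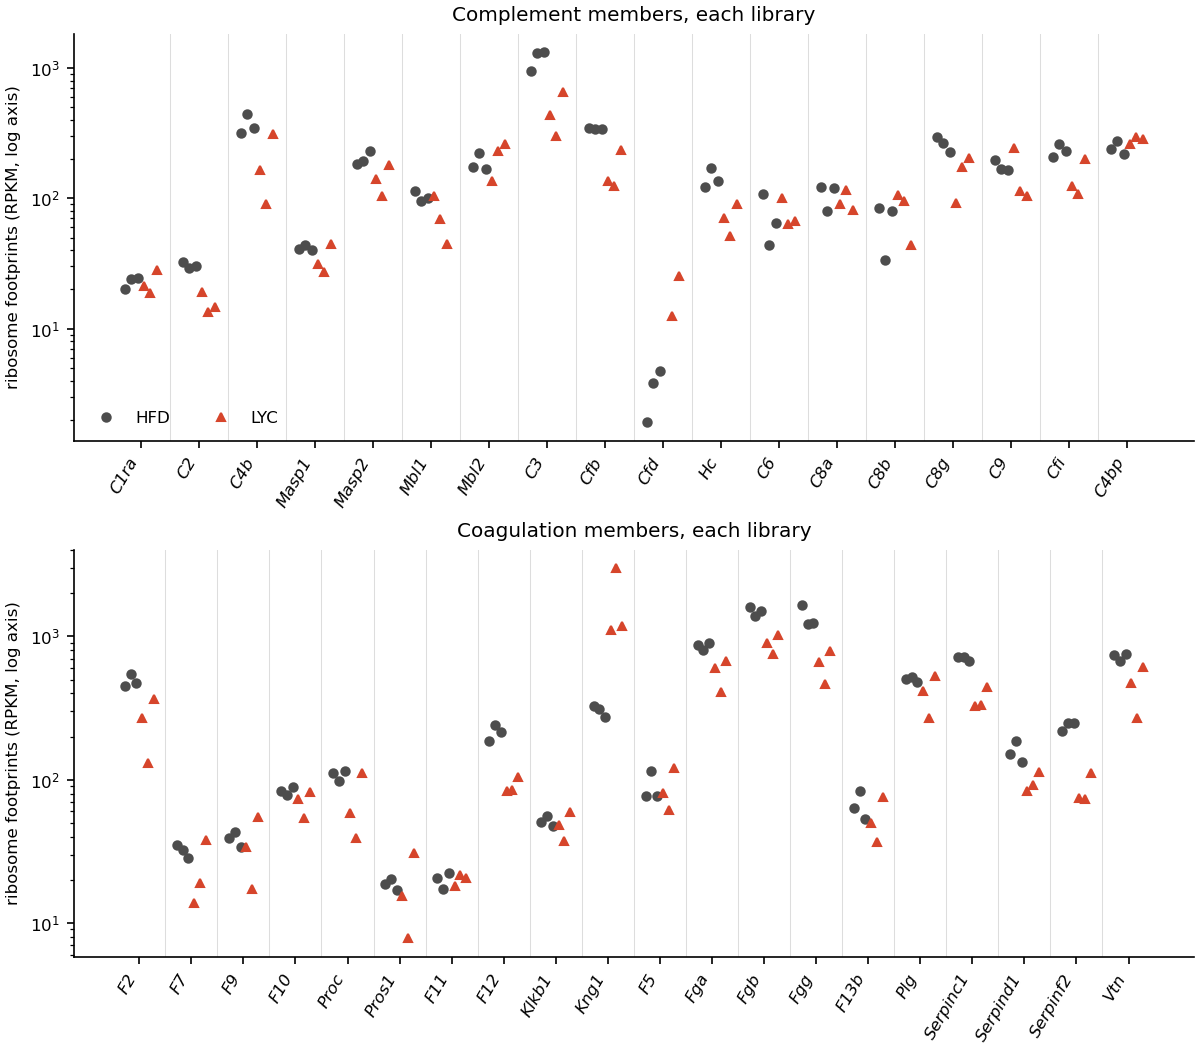
RPKM of each member in each library on a log axis, complement members above and coagulation members below, with grey circles for HFD1 to HFD3 and red triangles for LYC1 to LYC3 from left to right. Kng1 stands out above its HFD circles, and C3, Cfb, Serpinf2, F12 and the fibrinogen chains lie below theirs. Cfd in LYC1 is listed at 0 and is not drawn.

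In fibrinolysis and the serpins the log2 fold change was below 0 for all 4 members, although Plg lay near 0 and was at 0.27 without LYC2. Serpinf2 encodes alpha-2-antiplasmin, the main inhibitor of plasmin. It lies at chr11:75431732-75439591 on the minus strand (GRCm38). Its level was 219, 249 and 249 RPKM in HFD1, HFD2 and HFD3 and 74.0, 73.3 and 112 RPKM in LYC1, LYC2 and LYC3. Every LYC library was far below the lowest HFD library. The means were 239 ± 17.8 and 86.4 ± 22.0 RPKM (SD, n = 3 each), 2.77 times higher in HFD. The fitted log2 fold change was -1.19 (SE 0.26, adjusted p = 0.0208 by limma after Benjamini-Hochberg). The ratio of deposited means is larger than the fitted fold change because the TMM factors differ between the groups. These values rest on 4170 HFD reads and 215 LYC reads, and the gene was called in all 16 alternative analyses that kept these limits, with log2 fold changes between -1.48 and -1.02. At a limit of 0.001 for the unadjusted p it was not called.

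Serpinc1 encodes antithrombin, which blocks thrombin and factor Xa. It had 720.4, 718 and 675 RPKM in HFD and 327, 332 and 442 RPKM in LYC, so the groups were apart. Its log2 fold change of -0.66 (SE 0.24) did not pass (adjusted p = 0.111, limma). Serpind1, heparin cofactor II, had means of 157 ± 27.6 and 95.8 ± 15.4 RPKM (SD, n = 3 each) and a log2 fold change of -0.41 (adjusted p = 0.255, limma). Plg encodes plasminogen, the precursor of plasmin. Its values of 503, 525 and 483 RPKM in HFD and 418, 271 and 533 RPKM in LYC overlapped, with a log2 fold change of -0.06 and a 95% interval from -0.78 to 0.65. Plasminogen and the plasmin inhibitor thus stood at -0.06 and -1.19 in the same libraries, a difference that was not tested.

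The contact system held both the member that rose and one that passed the adjusted threshold in the other direction. Kng1 (chr16:23057865-23082078, plus strand) encodes kininogen, from which kallikrein releases bradykinin. Its high-molecular-weight form is the cofactor of the contact system. The gene has 4 annotated transcripts of 636 to 2255 bases, and a value per gene does not tell its forms apart. Kng1 had 326, 310.3 and 274 RPKM in HFD1, HFD2 and HFD3 and 1116, 2985 and 1184 RPKM in LYC1, LYC2 and LYC3. All 3 LYC libraries were above all HFD libraries, and LYC2 was above the other two LYC libraries by more than these differed. The means were 303 ± 26.5 and 1762 ± 1060.2 RPKM (SD, n = 3 each), 5.80 times higher in LYC. By limma the log2 fold change was 2.68 (SE 0.34, adjusted p = 0.00248). Without LYC2 it was 2.29, and it was called in all 16 alternatives and at the stricter limit. Behind these values stood 1728, 2659 and 445 reads of HFD1, HFD2 and HFD3, with 856, 1806 and 949 of LYC1, LYC2 and LYC3.

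Mice carry another kininogen gene, Kng2, beside Kng1, and reads that fit both copies can be shared out between them in ways the sources used here do not describe. Kng2 had 330.0, 357 and 306 RPKM in HFD and 272, 367 and 394 RPKM in LYC, which overlap (log2 fold change 0.34, adjusted p = 0.333, limma). The ratio of Kng1 to Kng2 was 0.870 to 0.988 in HFD and 4.10, 8.13 and 3.00 in LYC1, LYC2 and LYC3. With both copies added up, an analysis chosen after seeing the data, the log2 fold change was 1.91 (unadjusted p of 0.000187 by limma).

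F12 (chr13:55417958-55426793, minus strand) encodes factor XII, the protease that starts the contact pathway. It had 186, 241 and 214 RPKM in HFD and 83.6, 84.8 and 105 RPKM in LYC. The LYC libraries lay close together and below every HFD library. Its log2 fold change of -0.93 (SE 0.23, adjusted p = 0.0324, limma) was short of the fold limit, and 4 of the 16 alternatives called it. The other 2 contact members showed no such pattern. F11, factor XI, had means of 20.0 ± 2.59 and 20.0 ± 1.76 RPKM (SD, n = 3 each) and a log2 fold change of 0.28 (95% interval -0.34 to 0.91). Klkb1, plasma prekallikrein, lies next to F11 on chromosome 8 and had means of 51.4 ± 4.38 and 48.3 ± 10.7 RPKM, with a log2 fold change of 0.18 (95% interval -0.44 to 0.80).

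**Figure D2:**
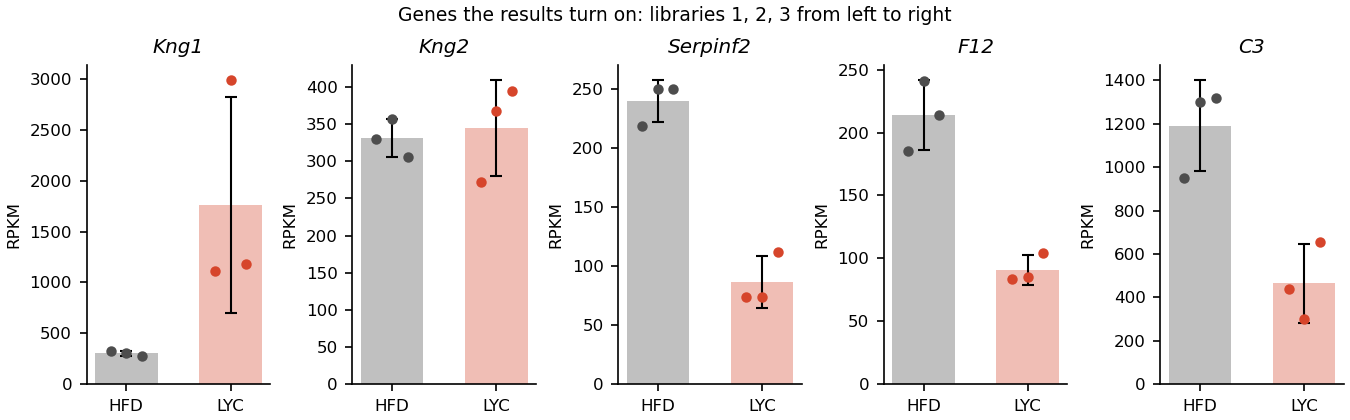
RPKM of Kng1, its paralog Kng2, Serpinf2, F12 and C3 in HFD and LYC on linear axes that start at 0. Points are the libraries, bars the means and error bars the SD (n = 3 each). Kng1 was above its HFD values in all LYC libraries and Kng2 was not, and the LYC points of Serpinf2, F12 and C3 lie below all HFD points.

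For the members that passed the adjusted threshold on the lower side, the 250 bases before the RefSeq start site (GRCm38.p6) are shown, 5′ to 3′ on the gene's strand. The RefSeq table used held no entry for Kng1. Neither sequence holds one of the motifs marked for fibrinogen further on, so all letters are in lower case. For Serpinf2 the GENCODE span given above starts earlier than the RefSeq gene and takes in 90 bases of the window.
Serpinf2, chr11:75439502-75439751, minus strand: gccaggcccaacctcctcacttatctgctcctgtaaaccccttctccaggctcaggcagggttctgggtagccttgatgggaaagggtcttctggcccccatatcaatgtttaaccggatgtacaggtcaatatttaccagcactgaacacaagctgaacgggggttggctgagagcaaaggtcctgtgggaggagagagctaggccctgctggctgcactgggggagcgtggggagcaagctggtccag
F12, chr13:55426805-55427054, minus strand: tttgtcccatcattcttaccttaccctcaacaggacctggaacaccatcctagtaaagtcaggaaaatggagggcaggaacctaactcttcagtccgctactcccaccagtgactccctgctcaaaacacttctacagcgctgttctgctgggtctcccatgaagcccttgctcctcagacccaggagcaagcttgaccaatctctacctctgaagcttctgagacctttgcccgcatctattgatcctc

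Fibrinogen is the hexamer cut by thrombin, built from paired chains encoded by Fga, Fgb and Fgg, which lie side by side on chromosome 3. Fga (chr3:83026076-83033627) encodes the alpha chain and had 868, 807 and 901 RPKM in HFD and 603, 410.5 and 677 RPKM in LYC. Fgb (chr3:83040141-83049863) encodes the beta chain, with 1599, 1381 and 1511 RPKM in HFD and 899.6, 758 and 1020.4 RPKM in LYC. Fgg (chr3:83007724-83015049) encodes the gamma chain, with 1647, 1228 and 1250.5 RPKM in HFD and 659.9, 464 and 793 RPKM in LYC. For each chain, as deposited, every LYC library was below every HFD library, with LYC2 the lowest and LYC3 the highest of the LYC libraries. After scaling the groups stayed apart for Fgg only. None of the 3 was called in the main fit. The log2 fold changes were -0.34 for Fga, -0.46 for Fgb and -0.83 for Fgg, with adjusted p of 0.478, 0.298 and 0.126 by limma. Scaled by total library size they were -0.64, -0.75 and -1.12, and Fgg was called lower. The ratio of Fga to Fgb overlapped between the groups, at 0.543 to 0.596 in HFD and 0.542 to 0.670 in LYC. The ratio of Fgg to Fgb was 0.828 to 1.03 in HFD and 0.613 to 0.778 in LYC, with no overlap. Neither ratio was tested, and how often such ratios separate among other genes was not computed. Together the chains took 0.739% to 0.875% of the library totals in HFD and 0.355% to 0.551% in LYC.

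The promoters of the fibrinogen chains are shown because the chains lie side by side and were all lowest in LYC2, both as deposited and after scaling. Capitals mark the letters GTTAAT or, on the other strand, ATTAAC. These letters are a half-site of the palindrome that the hepatocyte factor HNF1 is known to bind.
Fga, chr3:83025903-83026152, plus strand: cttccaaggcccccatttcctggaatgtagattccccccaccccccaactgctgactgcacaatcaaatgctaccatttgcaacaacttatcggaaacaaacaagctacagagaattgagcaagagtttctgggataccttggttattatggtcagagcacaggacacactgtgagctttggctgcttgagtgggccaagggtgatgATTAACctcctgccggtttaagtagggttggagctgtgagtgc
Fgb, chr3:83049864-83050113, minus strand: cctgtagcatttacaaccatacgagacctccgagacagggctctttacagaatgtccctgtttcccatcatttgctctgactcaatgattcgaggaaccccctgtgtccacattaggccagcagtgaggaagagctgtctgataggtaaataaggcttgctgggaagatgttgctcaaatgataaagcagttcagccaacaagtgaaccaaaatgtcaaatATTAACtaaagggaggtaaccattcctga
Fgg, chr3:83007474-83007723, plus strand: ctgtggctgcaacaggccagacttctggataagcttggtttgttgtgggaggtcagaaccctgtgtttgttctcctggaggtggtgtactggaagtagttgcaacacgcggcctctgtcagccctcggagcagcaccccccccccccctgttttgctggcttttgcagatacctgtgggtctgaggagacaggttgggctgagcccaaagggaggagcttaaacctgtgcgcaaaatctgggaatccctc
The half-site begins 43 bases before the RefSeq start of Fga and 29 bases before that of Fgb, and was not found in the window of Fgg. Of the 30 windows found, 10 run into the GENCODE span of their gene, and for Fga and C1ra this span takes in the half-site. The annotated starts also differ for some windows that do not, such as that of F12. Of the 38 members 30 had an entry in the RefSeq promoter table, and 9 of these 30 windows held the half-site on either strand (30%), against 6.52% of 27025 windows of 250 bases before all listed starts. The others were C1ra, C4bp, C8a, C8b, F13b, Hc and Vtn. A core of C/EBP sites, TTGCNNAA, was found on either strand in 7 of 30 windows (23.3%) and in 9.55% of all windows, Fga and Fgb included. TATAAA on the gene's strand was in 2 of 30 (6.67%) and in 8.12% of all. Members with the half-site had fold changes on both sides of 0, among them C4bp at 0.49 and Hc at -0.72. No entry was used for Plg, C4b, Cfb, Kng1, Cfi, Proc, Masp1 and C2.

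F5 and F13b were listed with the chains, and neither was called. F5 encodes factor V, the cofactor of factor Xa. It had means of 89.6 ± 22.4 and 87.4 ± 29.6 RPKM (SD, n = 3 each) and a log2 fold change of 0.23 (95% interval -0.46 to 0.92). F13b encodes the carrier subunit of factor XIII, which crosslinks fibrin, and had a log2 fold change of -0.05 (95% interval -0.78 to 0.68). Vtn encodes vitronectin, an adhesive plasma protein that also binds terminal complement complexes. It had 746, 674 and 755 RPKM in HFD and 472, 271 and 609 RPKM in LYC. These did not overlap as deposited but did after scaling, and the log2 fold change of -0.47 did not pass (adjusted p = 0.415, limma).

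None of the 6 vitamin K-dependent proteins, whose glutamates are carboxylated before secretion, passed a test, and the median of their log2 fold changes was -0.12. Prothrombin (F2) had 454, 544 and 471 RPKM in HFD and 268, 129.8 and 367 RPKM in LYC. The LYC libraries were all lower but far apart from each other, and the log2 fold change of -0.76 had an SE of 0.40 (adjusted p = 0.232, limma) and was -0.27 without LYC2. Factor X (F10) and factor VII (F7), neighbours on chromosome 8, stood at 0.01 and -0.26, and factor IX (F9) at 0.02. F7 was -0.03 without LYC1 and -0.69 without LYC3. Protein C (Proc), the protease that inactivates factors V and VIII, had means of 108 ± 8.74 and 69.7 ± 37.7 RPKM (SD, n = 3 each) and its cofactor protein S (Pros1) 18.7 ± 1.65 and 18.0 ± 11.8 RPKM. Their log2 fold changes were -0.47 and 0.04. As deposited, LYC2 was the lowest and LYC3 the highest of the LYC libraries for F2, F9, F10, Proc and Pros1, and for F7 LYC1 was the lowest.

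Among complement members the values farthest below 0 in the fit of all 6 libraries belonged to C3, C4b and Cfb, and C4b held this place through LYC2. C3 (chr17:57203970-57228136), the component on which all pathways converge, had 949, 1302 and 1319.7 RPKM in HFD and 438, 298 and 656 RPKM in LYC. The highest LYC library was below the lowest HFD library. The means were 1190.4 ± 209 and 464 ± 180.4 RPKM (SD, n = 3 each), 2.56 times higher in HFD. The log2 fold change of -1.12 (SE 0.34) met the fold limit, but its unadjusted p of 0.0104 from limma missed the limit of 0.01 (adjusted p = 0.0688). It was called in 6 of 16 alternatives, and lay between -1.44 and -0.77 over all of them, the latter without LYC2. Cfb encodes factor B, the protease of the alternative pathway. It had 343, 340.4 and 342 RPKM in HFD and 136, 124 and 237 RPKM in LYC. Its HFD values were nearly equal and the LYC values well below them, with a log2 fold change of -0.81 (SE 0.30, adjusted p = 0.111, limma). Cfb was called in 2 of 16 alternatives, with values between -1.13 and -0.56 over all of them.

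Cfd encodes adipsin, the protease that activates factor B and is made mainly by fat cells. Its reads numbered 4, 13 and 3 for HFD and 0, 3 and 8 for LYC, or 1.92, 3.86 and 4.70 RPKM and 0, 12.6 and 25.4 RPKM. These reads are too few to compare, and the 0 reads of LYC1 allow a level of up to 9.94 RPKM, which 3 reads would give. Of the 5 adipocyte markers, Plin1, Retn and Lep were listed at 0 in all libraries and Adipoq had 0.553 RPKM in HFD2 and 0 elsewhere. Cidec had 1.72, 1.73 and 1.40 RPKM in HFD and 2.97, 16.9 and 22.7 RPKM in LYC. These rest on 8, 13 and 2 reads in HFD and 2, 9 and 16 reads in LYC. Which cells the Cidec reads came from was not tested.

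C2, C4b and Cfb are clustered within the major histocompatibility region of chromosome 17. C4b encodes C4, which is cut to anchor the classical and lectin convertase. It had 317, 445 and 344 RPKM in HFD and 166, 90.6 and 312 RPKM in LYC. LYC2 was far below LYC3, and the log2 fold change of -0.82 (SE 0.43) did not pass (adjusted p = 0.233, limma). Leaving out a single library put this fold change between -1.30, where C4b was called, and -0.31 without LYC2. Reads of C4b and its near-identical copy C4a may be shared, which was not tested. C4a had at most 1.79 RPKM, and with it added the value of C4b was -0.82. C2 encodes the protease that pairs with C4. Its 32.3, 29.3 and 30.4 RPKM in HFD and 19.2, 13.4 and 14.7 RPKM in LYC gave a log2 fold change of -0.65 (adjusted p = 0.183, limma). The groups of C2 were apart as deposited and overlapped after scaling.

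The starters of the classical and lectin pathways had values on both sides of 0. Mbl2, a mannose-binding lectin, had 174, 224 and 167 RPKM in HFD and 135, 229.6 and 262 RPKM in LYC and a log2 fold change of 0.40, while that of the related lectin Mbl1 was -0.28. Neither passed (adjusted p = 0.327 and 0.635, limma), and single libraries moved both. Mbl2 was 0.60 without LYC1 and 0.17 without LYC3, and Mbl1 was -0.67 without LYC1 and -0.01 without LYC3. The lectin-associated proteases Masp1 and Masp2 stood at -0.01 and -0.25. For Masp2 the deposited values imply a transcript of 744 bases, near the shortest annotated form, so its level of 201 RPKM in HFD depends on that choice. C1ra, which encodes the protease C1r, stood at 0.25, and at -0.34 when its copy C1rb was added (unadjusted p of 0.403 by limma).

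In the membrane attack complex 3 of 6 members were below 0 and 3 above. Hc encodes C5, the first component of the complex. It had 122, 170.1 and 136 RPKM in HFD and 71.1, 51.6 and 90.9 RPKM in LYC, and its log2 fold change of -0.72 (SE 0.29) did not pass (adjusted p = 0.133, limma). Scaled by total library size Hc stood at -1.02 and was called lower. The groups were apart. None of the 3 chains of C8 passed, and the differences between them were not tested. C8g, the lipocalin chain, was at -0.52, C8a at 0.14 and C8b at 0.61, with 95% intervals from -1.18 to 0.13, -0.52 to 0.81 and -0.52 to 1.73. C8g is on chromosome 2, and C8a and C8b are neighbours on chromosome 4. The ratio of C8g to C8b was 3.49, 7.87 and 2.84 in HFD and 0.874, 1.79 and 4.60 in LYC, so the groups overlap. HFD2 was lowest of the HFD libraries for C6, C8a and C8b, with 44.0, 80.2 and 33.8 RPKM, and the values of all 3 rested on it. C6 stood at 0.45 with all libraries and at 0.02 without HFD2, and without it C8a was -0.18 and C8b 0.06. C8g was -0.28 without LYC1. C9, the pore-forming component, stood at -0.01.

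The 2 fluid-phase regulators lay on either side of 0. C4bp, the C4b-binding protein, had 239, 277 and 218 RPKM in HFD and 261, 294 and 285 RPKM in LYC. The values overlap as deposited and are apart after scaling, with a log2 fold change of 0.49 (SE 0.21, adjusted p = 0.151, limma). Scaled by total library size it was 0.20, with an unadjusted p of 0.447. Cfi, the protease that degrades C3b and C4b with such cofactors, stood at -0.44 (adjusted p = 0.332, limma).

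**Figure D3:**
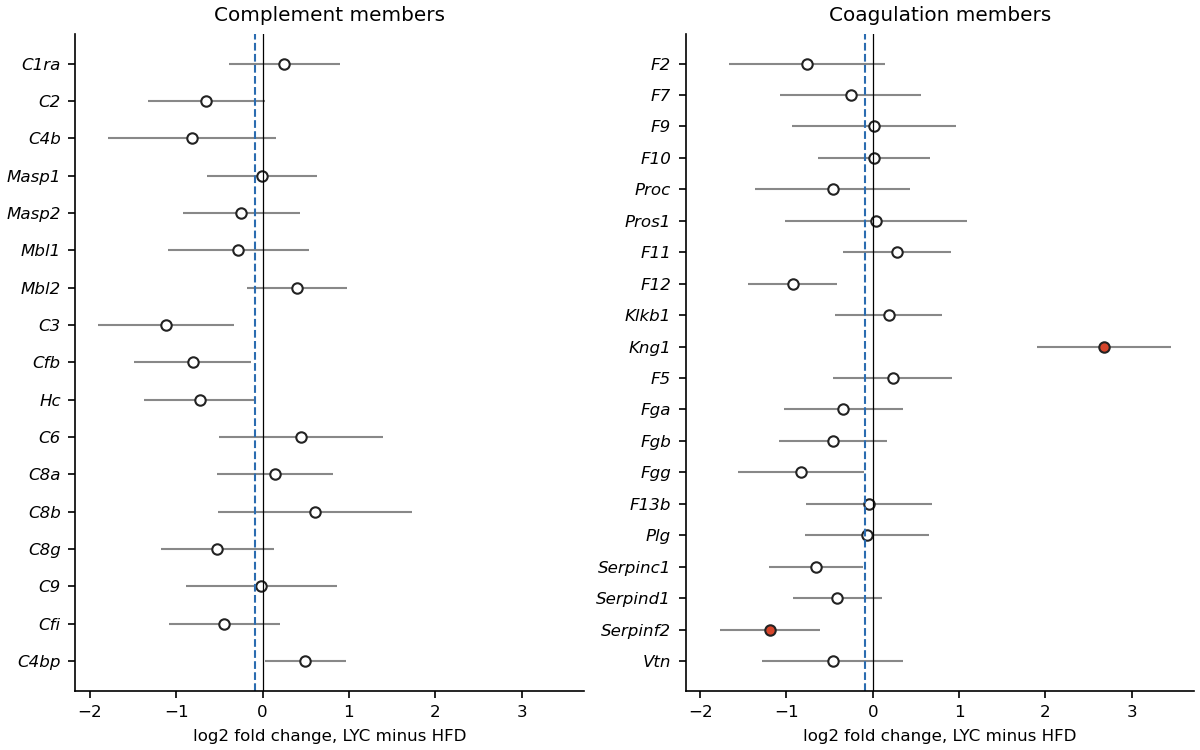
Log2 fold change of each tested member, LYC minus HFD, with its 95% interval from limma, on the log2(RPKM / TMM factor + 1) scale. Filled points are called, the solid line is 0 and the dashed line is the median of all genes at -0.09. Kng1 at 2.68 and Serpinf2 at -1.19 are the filled points.

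Complement and coagulation did not separate. The median log2 fold change was -0.25 over the 17 complement members and -0.30 over the 20 coagulation members, against -0.09 over all 5666 genes, and complement minus coagulation was 0.05. Relative to the mean of HFD, the complement median was -0.01, -0.47 and -0.09 in LYC1, LYC2 and LYC3, and the coagulation median was -0.10, -0.88 and 0.28. Complement was therefore higher than coagulation in LYC1 and LYC2 and lower in LYC3. The difference between the class medians changed sign without HFD2 (-0.01), without LYC1 (-0.04) and when the trend with gene length was removed (-0.19).

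Leaving out 1 library moved the log2 fold change by over 1.5 times for 28 of the 37 members. The other 9 were Serpinf2, F12, Kng1, C3, Cfb, C2, C4bp, Serpinc1 and Serpind1. The measure is a ratio, so members near 0 pass it with small moves, such as F10 at 0.01 and C9 at -0.01. How many of all genes move this far was not computed. The LYC libraries differed among themselves in the members. LYC2 was the lowest LYC library, after scaling, in 30 of the 37 members and in 35.5% of all genes, and LYC3 was the highest in 25 members and in 33.8% of all genes. In LYC2, 30 members lay below every HFD library, compared with 14 in LYC1 and 12 in LYC3. The corresponding shares of all genes were 44.3%, 43.1% and 39.3%. LYC2 was likewise the lowest LYC library for 6 of the 9 hepatocyte markers tested, and for 12 of 20 other complement genes and 8 of 10 other coagulation genes. The same held for 4 of 4 endothelial, 2 of 4 Kupffer and macrophage and 0 of 3 stellate markers tested. The members in which LYC2 was not the lowest included Kng1, of which it held the highest level. Without LYC2, 23 of the 24 members below 0 came closer to 0 or passed it, and 15 of them moved by over 1.5 times. Among these were Hc at -0.45, Proc and Fga at -0.05 and -0.06, Vtn at -0.07 and Fgg at -0.55. The members were taken as below 0 from a fit that includes LYC2, so these counts are a description. Their share over all genes was not computed. Without LYC2 the medians were 0.02 for complement and -0.06 for coagulation, while Serpinf2 and Kng1 were still called. LYC2 was also the library with the fewest reads, and whether depth had a part was not tested.

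**Figure D4:**
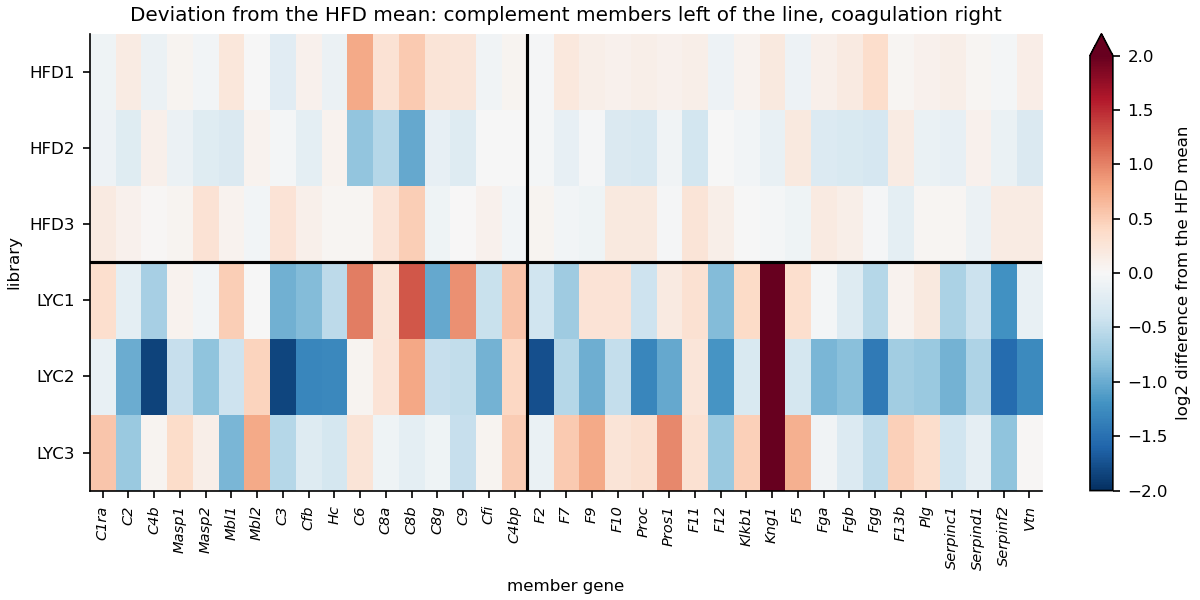
Difference of each tested member from its HFD mean, on the log2 scale after TMM scaling, in the 6 libraries, from blue (lower) to red (higher). Colours end at -2 and 2, and Kng1 in LYC lies beyond. The row of LYC2 is blue across most members of both classes, with a median of -0.75, and those of LYC1 and LYC3 are mixed, with medians of -0.04 and 0.05.

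The position of the members among genes of like level and length was uneven. Among genes above 300 RPKM in HFD, the median log2 fold change was 0.18 over all 242 genes and -0.66 over the 11 members there. Between 100 and 300 RPKM it was 0.15 over 408 genes and -0.41 over 13 members, and between 30 and 100 RPKM 0.01 over 1031 genes and 0.02 over 10 members. Between 10 and 30 RPKM it was -0.16 over 1922 genes and 0.25 over 3 members. The bins use the HFD level, which also enters the fold change, so these medians are a description. By length, the median over all genes was 0.53 under 1 kb and -0.26 above 4 kb. For members it was -0.46 from 1 to 2 kb (10 members, 0.08 over all genes there) and -0.05 from 2 to 3 kb (17 members, -0.07 over all). The 5 members above 4 kb had the lowest median of these bins, -0.72, and the 2 members under 1 kb stood at -0.26. The 3 members from 3 to 4 kb were at 0.04, against -0.13 over all genes there.

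**Figure D5:**
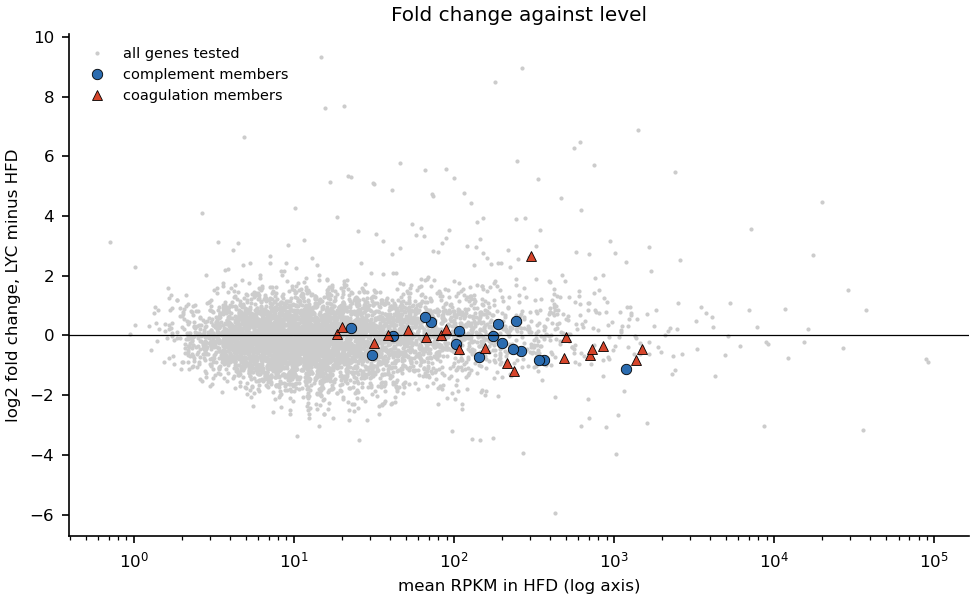
Log2 fold change, LYC minus HFD, against mean RPKM in HFD on a log axis for the 5666 genes tested (grey) and the 37 tested members by class. Above 300 RPKM 10 of the 11 members lie below 0 and Kng1 lies above.

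Of the other genes of these pathways, 20 of 32 listed for complement, 10 of 25 for coagulation and all 5 for the vitamin K cycle and factor transport were tested, and 0 were called by limma. Most of the rest had few reads, and C1s2, Fcnb, A2m, F2rl3 and Bdkrb2 were listed at 0 in every library. An unadjusted p below 0.05 was found for 3, 1 and 1 of them, against 30.2% of all genes. These were C1qa on the higher side and C1qc, Serping1, Proz and Ggcx on the lower side, named after their values were seen. On the complement side 13 of 20 were below 0 with a median of -0.39. EdgeR and DESeq2 on the recovered reads each called 1 of these genes higher (8.77% and 9.09% of all genes), the Kupffer cell complement receptor Vsig4, which limma placed at 1.26 (adjusted p = 0.189) and which is named here after its values were seen. Clusterin (Clu), an inhibitor of the attack complex, stood at -0.54, the C1 inhibitor Serping1 at -0.55 and the factor H relative Cfhr2 at -0.55, all with adjusted p between 0.162 and 0.195 (limma). On the coagulation side 5 of 10 were below 0 with a median of -0.18. Apoh, beta-2-glycoprotein I, stood at -0.63, the protease inhibitor Pzp at -0.40 and Kng2 at 0.34. All 5 genes of the vitamin K list were below 0, with a median of -0.36, and Lman1, the carrier of factors V and VIII out of the endoplasmic reticulum, stood at -0.15, its partner Mcfd2 at -0.36 and the vitamin K reductase Vkorc1 at -0.31.

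Markers of other liver cells were measured beside these results. The summed RPKM of 6 Kupffer cell and macrophage markers was 111 to 147 in HFD and 70.6 to 128 in LYC, that of 6 endothelial markers 37.1 to 56.5 and 16.2 to 67.3, and that of 5 stellate cell markers 20.3 to 39.0 and 8.11 to 38.8, and the groups overlap in each. The 9 hepatocyte markers present summed to 50500.2 to 54267 RPKM in HFD and 33265 to 45002 RPKM in LYC, which do not overlap. Alb was the largest part of each sum, with 25585 to 29641 RPKM in HFD and 13379 to 22447 RPKM in LYC. Apoa1 and Cps1 went the other way, with all LYC libraries above all HFD libraries as deposited. Of these 9, 5 were below 0 (54.7% of all genes) and 4 above after scaling, and 1, Cps1, was called higher (7.09% of all genes). Their part in the members' values was not tested.

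Several members share exon sequence with other annotated genes, and the counting of such reads is not described in the sources used here. On the opposite strand these are Tardbp for Masp2, Zbtb12 for C2, Fbxw5 for C8g, Slc22a3 for Plg, Zbtb37 for Serpinc1, Pi4ka for Serpind1, Rtp4 and the model Gm45338 for Masp1, and the models Gm13449 for Hc, Gm30097 for Fgg and Gm16548 for F5. On the same strand, C2 and Cfb share exons with the model Gm20547 and Klkb1 with Gm45753. Serpinf2, F12, C3 and Kng1 share none.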

How the data were processed

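Ribo-seq values are RPKM as deposited. The authors trimmed and filtered reads (cutadapt, Bowtie2), aligned them to mm10 (GRCm38) by STAR and quantified genes by FANSE2. For the libraries labelled mRNA they deposited read counts and RPKM. Versions, annotation release and filters are not given in the sources used here. Entries in the Ribo-seq table numbered 25033, of which 4 that share a name were left out. Members were compared by limma on log2(RPKM / TMM factor + 1), two-sided, over genes kept by filterByExpr on recovered reads, without a replicate block.

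Reads were recovered from the steps of the RPKM values, with gene lengths from the table labelled mRNA for 11294 of 15749 genes and fitted lengths for 4455. The table's lengths turned 74.6% to 76.2% of a library's nonzero values into whole reads, within 0.05 of a read plus 3e-05 of the number of reads. The recovery and the fits were tested on simulated data. The counts labelled mRNA track the Ribo-seq libraries: of genes with at least 10 counts, 28.2% to 79.4% lay within 2% of the reads of a single Ribo-seq library each. They served for gene lengths, apart from the values of Kng1 in the closing section, and translational efficiency was not tested.

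The members and gene lists were chosen with earlier results of these data known. All 38 members could be named. Of the other pathway genes, those called were named, and otherwise the 3 with the highest mean RPKM of each list. Outside this rule, Vsig4 and the genes with an unadjusted p below 0.05 were named after their values were seen. Alternatives were other scalings, filters, pseudocounts and thresholds, edgeR, DESeq2, a replicate block, removal of the length trend and leaving out each library. Gene positions are from GENCODE M21 and promoters from RefSeq (GRCm38.p6). The fits used limma 3.58.1, DESeq2 1.42.0 and edgeR 4.0.16 in R 4.3.3, and tables and plots used Python 3.11.15 with pandas 2.3.3, matplotlib 3.10.9 and numpy 2.4.6.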

Additional observations from a re-analysis of the deposited data

Results flagged for a closer look

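Kng1 was also high in data that the comparison did not use. In the table labelled mRNA it had 596, 1407 and 672 RPKM in LYC1, LYC2 and LYC3, above all HFD libraries of that table. That table tracks the Ribo-seq libraries in its counts, so these values are not an independent measure of Kng1.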

How the results depend on the processing

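Kng1 was called higher and Serpinf2 lower in all 16 alternatives with the limits of fold and p unchanged. The number of members called lower, 1 as reported, was 6 with scaling by total library size (3 complement, 3 coagulation), 0 with p below 0.001 (0 coagulation), and 2 in each of these: without a filter (2 coagulation), with adjusted p below 0.05 (2 coagulation), and with a pseudocount of 5, edgeR, DESeq2 or the replicate block (1 complement each). The groups held different mice, so the replicate numbers do not pair mice. Libraries of the same number correlated at 0.11, 0.026 and -0.0039, which does not tell whether they were prepared together. The block gave members called lower as 2 and higher as 1. Of all genes, 402 were called higher and 360 lower. Total library size gave 234 and 654 and a median of all genes of -0.36, no filter 366 and 852, a pseudocount of 5 335 and 218, p below 0.001 199 and 102, and edgeR on recovered reads 497 and 400. With total library size the complement median was -0.54 and the coagulation median -0.59. Without a filter they were -0.26 and -0.43. With the length trend removed they were -0.47 and -0.28, and complement minus coagulation was -0.19. Without Kng1, chosen after seeing the data, the coagulation median was -0.34.

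Leaving out each library in turn gave 1 to 5 members called lower (0 to 3 complement, 1 to 2 coagulation), with 5 without LYC3. All genes called lower ranged from 146 without HFD3 to 742 without LYC3. The complement median ranged from -0.40 to 0.025, the coagulation median from -0.55 without LYC3 to -0.056 without LYC2 (-0.30 as reported) and the difference of the class medians from -0.044 to 0.30. The causes were not tested.

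Members near 0 changed sign, none of them called. With total library size C1ra was -0.034, C8a -0.15, F9 -0.27, F10 -0.28, Pros1 -0.24, Klkb1 -0.11 and F5 -0.061. Without a filter F9 was -0.11, F10 -0.12 and Pros1 -0.090. At a mean of 20 reads Masp1 was 0.024 and C9 0.022. By edgeR Masp1 was 0.040, C9 0.13, F13b 0.023 and Plg 0.0095, and DESeq2 gave 0.041, 0.13, 0.023 and 0.0086. Masp1 was 0.063 with the length trend removed, and C1ra -0.34 with its copy added. Without single libraries C8a ranged from -0.18 to 0.27, F9 from -0.40 to 0.51, F10 from -0.16 to 0.25, Pros1 from -0.47 to 0.56, Klkb1 from -0.0015 to 0.42, F5 from -0.054 to 0.52, Masp1 from -0.24 to 0.21, C9 from -0.48 to 0.22, F13b from -0.35 to 0.27, Plg from -0.32 to 0.27 and Masp2 from -0.47 to 0.025.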
